A study of Mus musculus with 12 samples.

Results

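Solute carriers are membrane proteins that move small molecules across the plasma membrane and the membranes of organelles, and their gene symbols start with Slc and a family number. The 167 entries described here were chosen by gene name and selected on measured expression: each holds an Slc symbol, averages 1 FPKM or more across the 4 groups of the study, with no group at 0. FPKM is a fragment count divided by transcript length and library size, so levels of different genes can be compared. The table has 46729 entries, of which 11580 pass the same filter on level, and 376 hold an Slc symbol. Of those 376, 11 were left out by name (Slc2a1, Slc2a3, Slc2a6, Slc7a1, Slc7a2, Slc7a11, Slc11a1, Slc11a2, Slc16a1, Slc16a3 and Slc40a1), 130 had a mean above 0 and under 1 FPKM, and 68 were at 0 in every group. The members just inside the limit were Slc12a2 (mean 1.05 FPKM), Slc29a2 (1.07) and Slc22a21 (1.14), and those just outside were Slc18b1 (0.826), Slc25a35 (0.778) and Slc27a3 (0.764). No entry was kept out by a 0 alone.

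The cells were macrophages grown for 10 days from bone marrow of C57BL6 mice in interleukin-3 plus L-929 conditioned medium, which supplies the macrophage growth factor CSF1. They were left untreated or given 0.2, 2 or 20 U/ml of interferon gamma (IFNγ), the cytokine with which lymphocytes activate macrophages, over 8 h. For the top dose the label has U with no volume, taken here as U/ml. Each of the 4 groups has 3 libraries, 12 in all, and the labels name no separate animals or cultures. The table gives 1 FPKM per entry and group, so no difference below has a replicate check, a standard deviation or a p-value.

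Transport is how a macrophage feeds its metabolism, clears what it has engulfed and sets the ion and metal content of its lysosomes and phagosomes. Carriers for amino acids, glucose and nucleosides supply biosynthesis, mitochondrial carriers join the cytosol to the respiratory chain, and carriers for zinc, copper and heme handle metals that microbes also need. Many carriers belong to families in which close relatives move the same substrate across different membranes.

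Ratios were differences of log2(FPKM + 1), which understate the differences of low genes, and an entry was counted as higher or lower when the ratio was at least 1 in size, 2-fold on that scale. Macrophage markers were present: Csf1r was at 349, 340, 416 and 418 FPKM and Adgre1 at 151, 137, 189 and 188 in untreated cells and at 0.2, 2 and 20 U/ml, the order used for every list of 4 values below. Of 10 macrophage markers, 8 were at 10 FPKM or more in every group. Lyz2 was listed at 0 in 3 groups and at 7449 FPKM at 20 U/ml. Whether a listed 0 means absence was not tested, and the filter on level leaves out any such entry, Lyz2 included. Markers of other cells that stayed under 1 FPKM throughout numbered 6 of 6 for T and NK cells, 3 of 4 for B cells, 3 of 5 for neutrophils, 4 of 4 for mast cells and basophils, 3 of 4 for dendritic cells, 3 of 3 for the erythroid line, 3 of 4 for stroma and endothelium and 1 of 5 for osteoclasts. The exceptions for B cells, dendritic cells and stroma and endothelium passed 1 FPKM at 0.2 U/ml alone. Ms4a1 was at 0.242, 1.09, 0.299 and 0.231 FPKM. Siglech was at 0.177, 1.97, 0.258 and 0.101, and Pecam1 at 0.691, 3.41, 0.720 and 0.941. The summed osteoclast markers went from 41.9 to 36.2, 32.8 and 27.4 FPKM and the summed neutrophil markers from 16.7 to 20.6, 27.9 and 34.3. A single gene carried each sum: Ctsk went from 31.9 to 15.7 FPKM at 20 U/ml while Dcstamp went from 3.15 to 3.78, and S100a8 went from 13.3 to 30.4 while S100a9 was at 2.32, 1.25, 1.46 and 2.68. Their part in the differences below was not tested, and in bulk RNA fewer cells of a type cannot be told apart from less RNA per cell.

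Most carriers were near their untreated levels, with 94 of the 167 (56.3%) within a log2 ratio of 0.3 of 0 at 20 U/ml, against 52.6% of all 11580 entries. At 20 U/ml 11 of the 167 were higher, or 6.59%, against 6.51% of all 11580 entries, and 5 were lower, or 2.99%, against 2.94%. At 2 U/ml 2 were higher (1.20%, against 2.5% of all entries) and 0 lower (against 0.76%), which upper-quartile scaling made 2 and 1. At 0.2 U/ml 2 were higher (1.20%, against 5.23%) and 0 lower (against 0.328%). The shares at 20 U/ml are close to those of all entries, so these 167 do not stand out there, and individual carriers carry the description. Counts by substrate group below rest on few members each, stand beside the same 6.51% and 2.94% of all entries, and were not tested. The 167 lack the 11 transporters left out by name. Of those 11, 10 passed the filter on level, with 4 higher and 1 lower at 20 U/ml.

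A smaller size, 1.5-fold on the same scale, chosen after the values were seen, gave a like picture at 20 U/ml. There 21 members were higher (12.6%, against 12.6% of all entries) and 13 lower (7.78%, against 9.6%). The 21 include Slc6a9 and Slc29a2, which passed the filter on level only through the 20 U/ml group. At 2 U/ml 8 were higher (4.79%, against 5.35%) and 1 lower (0.599%, against 3.43%). At 0.2 U/ml 12 were higher (7.19%, against 11.6%) and 2 lower (1.20%, against 1.42%). The median log2 ratio of the members was -0.08, 0.03 and 0.02 in order of dose, and that of all entries 0.00, 0.01 and 0.01. In 86 of the 167 (51.5%, against 50.1% of all entries) the highest and lowest of the 4 FPKM were within 1.5-fold of each other, and in 32 (19.2%, against 24.5%) they were at least 2-fold apart. Upper-quartile scaling moved the median ratio of all entries at 20 U/ml from 0.01 to -0.11, and Slc30a1 and Slc31a1 then fell short of the size rule, at 0.97 and 0.92.

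**Figure D1:**
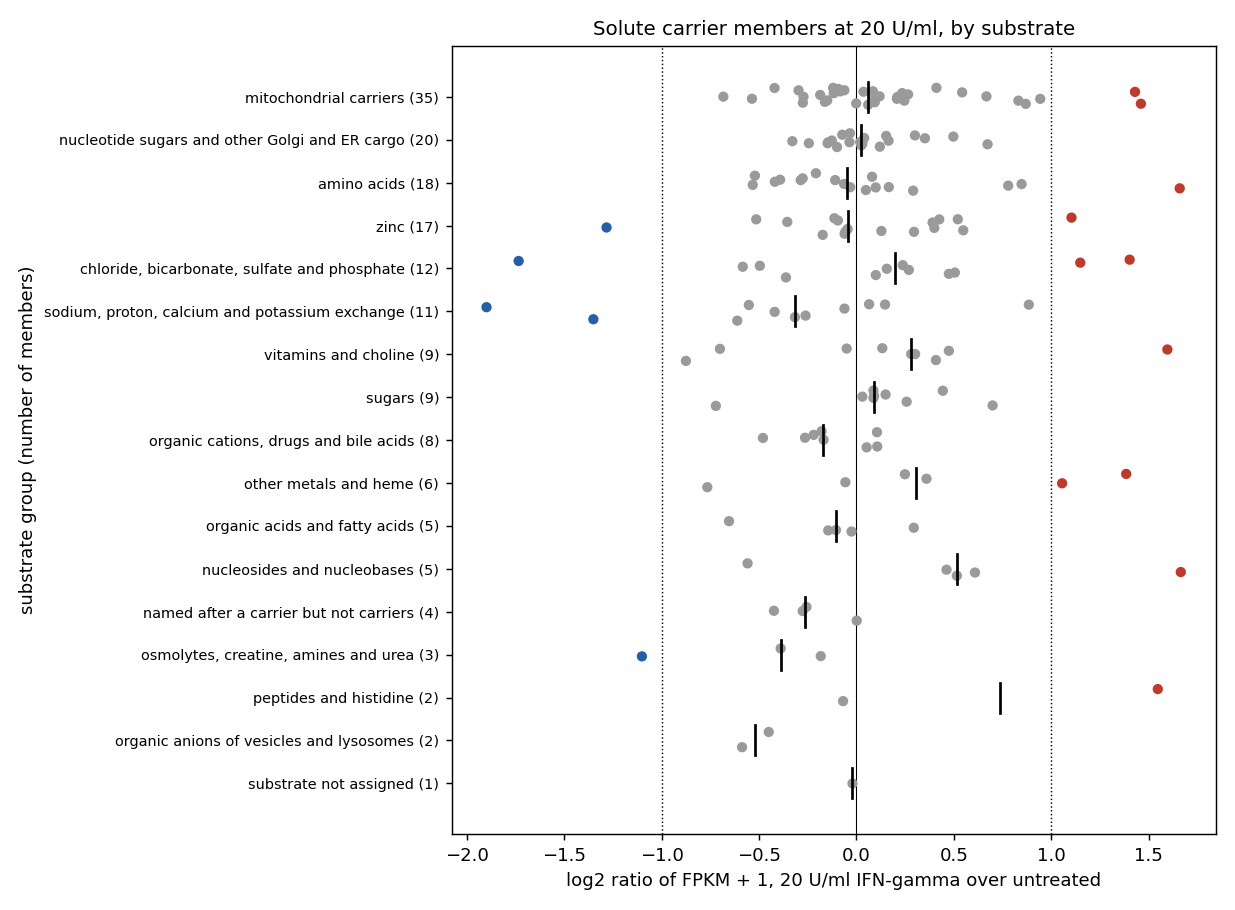
Log2 ratio of FPKM + 1 at 20 U/ml over untreated (horizontal axis) for each of the 167 members (points), in rows by substrate; black bars are medians, dotted lines mark 1 and -1, red points are higher and blue points lower by the size rule, and the vertical scatter within a row is arbitrary. The 11 higher members fall in 8 substrate groups and the 5 lower ones in 4, with most points of every large group near 0.

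By level, the leading carrier was Slc3a2, the heavy chain of CD98 that brings amino acid carriers of the SLC7 family to the cell surface. It was at 535, 525, 629 and 919 FPKM, the highest mean of the 167. After it came carriers of the inner mitochondrial membrane: Slc25a3, which imports phosphate, at a mean of 322 FPKM, Slc25a5, an ADP/ATP exchanger, at 289, and Slc25a39, which imports glutathione, at 199. In all, 8 members had a mean of 100 FPKM or more, 84 lay between 10 and 100 and 75 under 10. The median member was at 11.8, 11.1, 12.1 and 11.8 FPKM, against 12.3, 12.9, 12.8 and 13.3 for all entries. Summed over the 167, the FPKM were 4523, 4649, 4864 and 5287, and Slc3a2 alone gave 919 of the 5287 at 20 U/ml.

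Of the amino acid carriers, 1 of 18 passed the size rule at 20 U/ml, the glycine carrier Slc6a9, and the median log2 ratio was -0.05. Slc6a9 was at 0.394, 0.525, 1.05 and 3.40 FPKM, 8.64-fold higher at 20 U/ml on the FPKM scale and 1.66 on the log2(FPKM + 1) scale. Its level stayed among the lowest of the class even there. The mean of its other 3 groups was 0.657 FPKM, so it passed the filter on level only through the 20 U/ml group and had to be high there to be a member; it is the 1 such gene among the 11 higher members. Slc3a2 was at a log2 ratio of 0.78, which is 1.72-fold in FPKM. Of its light chain partners, the 3 among the members lay nearer to untreated levels. Slc7a8 (LAT2) was at 65.7, 74.2, 65.8 and 80.6 FPKM, Slc7a7 (y+LAT1) at 28.7, 26.7, 27.3 and 28.1, and Slc7a6 (y+LAT2) at 3.26, 2.96, 3.73 and 3.57. The heavy chain thus was 1.72-fold higher at 20 U/ml while these 3 light chains were at log2 ratios of 0.29, -0.03 and 0.10. The light chain Slc7a5 was not analysed here. Slc7a11, a further light chain left out by name, was low, at 0.713, 0.789, 0.441 and 0.350 FPKM, a log2 ratio of -0.34 at 20 U/ml.

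Carriers of small neutral amino acids showed unequal values. Slc1a4 (ASCT1) was at 0.896, 0.957, 1.54 and 2.41 FPKM, a log2 ratio of 0.85 at 20 U/ml that became 1.34 with a pseudocount of 0.1. Slc1a5 (ASCT2), which takes up glutamine, was at 25.5, 22.3, 27.4 and 26.4. The sodium-coupled carriers Slc38a1 and Slc38a2 were at log2 ratios of -0.28 and -0.06. Slc38a9, an arginine sensor of the lysosome that acts on mTORC1, was at 0.08, and Slc38a7, a glutamine carrier of the lysosome, at -0.29. The proton-coupled lysosomal carrier Slc36a1 was at -0.11, and Slc36a4 had the lowest ratio of the group, -0.53, at 6.67, 4.99, 6.41 and 4.30 FPKM. Slc43a2 (LAT4) was at 52.4, 63.5, 56.1 and 38.9 FPKM. None of the 18 was lower by the size rule at any dose.

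Slc15a3 and Slc15a4 carry histidine and small peptides out of endosomes and lysosomes and take part in signalling by receptors for microbial products there. They were the 2 members of their group and started at like levels. Slc15a3 (chromosome 19, 10839727 to 10859362, GRCm38) was at 76.4, 128, 223 and 225 FPKM, and Slc15a4 (chromosome 5, 127595664 to 127632897) at 72.9, 46.9, 56.8 and 69.5. Slc15a3 was higher at each step. Its log2 ratio was 0.74, 1.53 and 1.55 in order of dose, so 99.1% of the ratio at the highest dose was there at 2 U/ml. Among the 11 higher members it had the highest level and the largest ratio at 0.2 U/ml. Slc15a4 was at -0.63, -0.35 and -0.07, lowest at the smallest dose.

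Nucleoside carriers bring purines and pyrimidines into the cell and out of lysosomes. Slc28a2 (CNT2), a sodium-coupled carrier that concentrates purine nucleosides, was at 3.26, 2.92, 7.82 and 12.5 FPKM, with log2 ratios of -0.12, 1.05 and 1.67. At 20 U/ml that was level with Slc6a9 (1.66), and with a pseudocount of 0.1 the ratios were 1.91 and 2.83. The equilibrative carriers fell short of the size rule and differed in direction. Slc29a1 (ENT1), the main one by level, was at 56.1, 47.1, 48.8 and 37.8 FPKM, a log2 ratio of -0.56 at 20 U/ml. Slc29a3, the lysosomal one, was at 9.72, 9.63, 10.2 and 13.8, and Slc29a2 at 0.829, 0.739, 0.907 and 1.79. Their log2 ratios at 20 U/ml were 0.46 and 0.61, and that of Slc29a2 became 1.02 with a pseudocount of 0.1. Slc29a2 was under 1 FPKM in every group but that of 20 U/ml. It thus passed the filter on level only through that group and had to be high there to be a member. The purine nucleobase carrier Slc43a3 was at a log2 ratio of 0.52. In this group of 5, 1 was higher by the size rule and 0 lower at 20 U/ml.

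The start site of Slc28a2 was searched for 2 short motifs known from interferon-responsive genes, with the other members. The GAS motif, TTCNNNGAA, reads the same on both strands. The core of the ISRE, GAAANNGAAA, was searched on both strands. Windows ran from 250 bases before to 50 after each RefSeq start on GRCm38.p6. Of 32851 windows of all genes, 8.30% hold the GAS letters and 3.44% the ISRE letters. Of 175 windows of the 129 member genes with a window, 4.57% hold the first and 1.71% the second. Among the 16 windows of the 10 higher members with one, 1 holds the GAS letters and 1 the ISRE letters, and among the 4 windows of 3 lower members none holds either. A match is a description of the letters and shows no binding. The 2 windows are shown because they belong to members higher at 20 U/ml, with the match in capitals and 30 bases before and after it in lower case.
Slc28a2, GAS, chr2:122426279-122426347, plus strand, match starting 126 bases before the start: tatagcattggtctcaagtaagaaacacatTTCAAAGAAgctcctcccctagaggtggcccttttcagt
Slc25a22, ISRE core, chr7:141435415-141435484, minus strand, match starting 79 bases before 1 of its 3 listed starts: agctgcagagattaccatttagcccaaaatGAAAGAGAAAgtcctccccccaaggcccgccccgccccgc
The stretch of Slc28a2 lies upstream of the gene, which starts at 122426477. That of Slc25a22 lies inside the gene, which runs from 141429744 to 141437892 on the minus strand.

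Mitochondrial carriers were the largest group, with 35 members, a median log2 ratio of 0.06 at 20 U/ml, 2 higher and 0 lower. Both of those higher move glutamate. Slc25a22, which imports glutamate with a proton, was at 20.4, 20.8, 26.9 and 57.8 FPKM, with log2 ratios of 0.03, 0.38 and 1.46. Slc25a12 (aralar), which exchanges aspartate for glutamate as part of the malate-aspartate shuttle, was at 24.8, 19.9, 39.9 and 68.6, with ratios of -0.31, 0.66 and 1.43. Its relative Slc25a13 (citrin), which makes the same exchange, was at 20.0, 19.3, 19.5 and 17.4 FPKM. The 2 genes were at like levels in untreated cells and at 0.2 U/ml and apart at the higher doses. The oxoglutarate carrier Slc25a11, the other arm of that shuttle, was at 89.7, 92.0, 92.7 and 95.1.

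The abundant carriers of respiration differed less. Slc25a3 was at 325, 328, 309 and 325 FPKM, and the ADP/ATP exchanger Slc25a4 at 104, 94.7, 101 and 120. The second exchanger, Slc25a5, was at 242, 244, 285 and 385, a log2 ratio of 0.67 at 20 U/ml. The citrate carrier Slc25a1 was at 50.5, 45.6, 51.3 and 46.4 and the dicarboxylate carrier Slc25a10 at 36.7, 33.9, 35.4 and 33.8. Of the carriers around heme and iron, Slc25a37 (mitoferrin 1), which imports iron, was at 7.06, 9.17, 12.4 and 13.7 FPKM, a ratio of 0.87, and Slc25a38, which imports glycine for heme synthesis, at 7.94, 8.39, 10.5 and 12.03. The related iron carrier Slc25a28 (mitoferrin 2) was at 21.7, 21.6, 22.2 and 23.7. Slc25a39 was at 207, 245, 175 and 171.

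Carriers of ATP-magnesium and phosphate went in opposite directions without reaching the size rule. Slc25a25 was at 4.62, 4.22, 6.11 and 9.01 FPKM (0.83 at 20 U/ml), Slc25a24 at 25.6, 20.2, 24.8 and 24.1, and Slc25a23 at 4.97, 4.66, 3.99 and 2.72 (-0.68). Slc25a23 had the lowest ratio of the 35. Slc25a43, whose substrate is less well known, was at 0.94 and lies 18.4 kb from Slc25a5 on the X chromosome. Slc25a20, which brings in acylcarnitines for fatty acid oxidation, was at 9.89, 9.58, 8.91 and 10.6.

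Copper carriers were both higher at 20 U/ml. Slc31a1 (CTR1), which takes copper into the cell, was at 22.7, 22.5, 36.3 and 48.2 FPKM, and Slc31a2 (CTR2), found mainly in endosomes and lysosomes, at 15.4, 21.4, 30.7 and 41.7. Their log2 ratios at 2 U/ml were 0.66 and 0.96 and at 20 U/ml 1.06 and 1.39. The genes lie on the same strand of chromosome 4, Slc31a2 at 62262562 to 62298411 and Slc31a1 at 62360727 to 62391769, 62.3 kb apart. Of 10 pairs of neighbouring member genes within 200 kb, this was the 1 pair in which both passed the size rule, and under upper-quartile scaling and quantile normalization, with Slc31a1 at 0.92 and 0.89, it did not pass as a pair. Slc48a1 (HRG1), which releases heme from lysosomes after red cells are digested, was at 99.6, 75.5, 71.5 and 58.2 FPKM, a ratio of -0.77. The magnesium carriers Slc41a1, Slc41a2 and Slc41a3 were at 0.25, 0.36 and -0.06. Of the 6 members for metals other than zinc and for heme, 2 were higher and 0 lower at 20 U/ml, beside 6.51% and 2.94% of all entries. With 6 members, these counts are no result about metal carriers as a group.

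**Figure D2:**
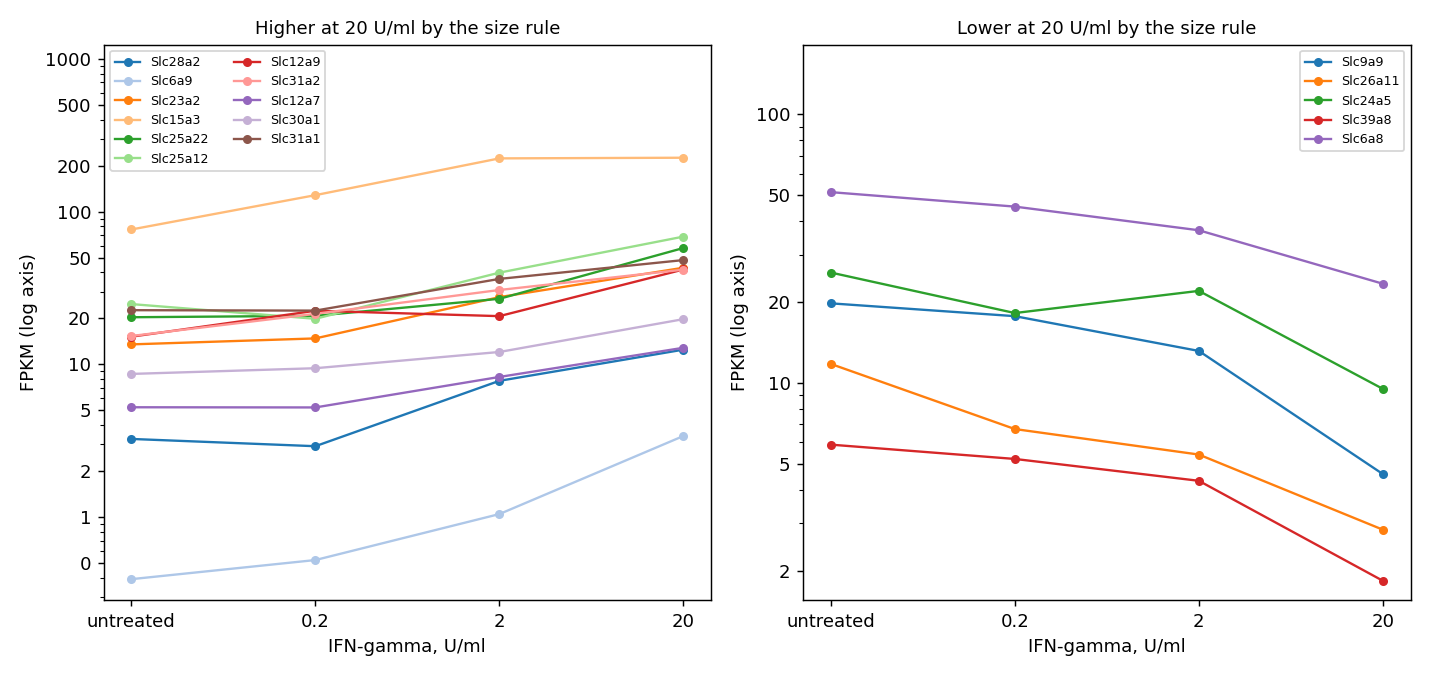
FPKM (log axis) in untreated cells and at 0.2, 2 and 20 U/ml of IFNγ for the 11 members higher at 20 U/ml (left) and the 5 lower (right), 1 value per group joined by lines. Slc15a3 levels off between 2 and 20 U/ml at 223 and 225 FPKM, while others, among them Slc25a22, Slc9a9, Slc39a8 and Slc24a5, have most of their difference between those doses.

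Zinc carriers form 2 families, of which SLC30 (ZnT) lowers and SLC39 (ZIP) raises zinc in the cytosol. Of 17 entries, 1 was higher and 1 lower at 20 U/ml, with a median log2 ratio of -0.05. Slc30a1 (ZnT1), which exports zinc at the cell surface, was at 8.67, 9.45, 12.1 and 19.8 FPKM, a ratio of 1.10. Slc39a8 (ZIP8), an importer of zinc and manganese, was at 5.89, 5.21, 4.32 and 1.83, a ratio of -1.28. This exporter and this importer thus stood on opposite sides, but both families had members on either side of 0. Slc30a4 was at -0.51 and Slc39a10 at 0.52. Slc30a1 fell short of the size rule under upper-quartile scaling (0.97) and quantile normalization (0.98). Slc39a14 (ZIP14), the nearest relative of ZIP8, was at 3.58, 4.37, 5.16 and 4.62 FPKM.

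Other zinc members were at smaller ratios. Slc30a7 and Slc30a6, which load zinc into the Golgi, were at 0.55 and 0.39, Slc30a5 at -0.11 and Slc30a4 at -0.51. Among ZIP genes, Slc39a10 was at 0.52, Slc39a13 at 0.43, Slc39a1 at 0.13 and Slc39a6 at -0.35. Slc39a1 was the leading unmerged ZIP gene by level, at 73.1, 71.8, 95.9 and 80.0 FPKM. The entry of Slc39a7 (ZIP7), which releases zinc from the endoplasmic reticulum, also holds H2-Ke6 and Gm20427 and was at 137, 196, 161 and 132, so its reads cannot be assigned to 1 gene. The same holds for Slc39a2, merged with Mettl17. Of the zinc-storing metallothioneins, Mt1 was at 844, 903, 520 and 377 FPKM and Mt2 at 82.5, 67.8, 44.5 and 76.5. The zinc-sensing factor Mtf1 was at 7.33, 7.74, 6.94 and 7.66. In this list of 4 entries, which includes Mt3, 0 were higher and 1, Mt1, lower at 20 U/ml.

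Carriers of vitamins and choline included Slc23a2 (SVCT2), which takes up ascorbate. It was at 13.5, 14.8, 27.6 and 42.96 FPKM, 3.17-fold higher at 20 U/ml, with log2 ratios of 0.12, 0.98 and 1.60, and was the 1 member of 9 past the size rule. Carriers of other vitamins lay within a log2 ratio of 0.5: the thiamine carrier Slc19a2 at 0.28, the folate carriers Slc19a1 and Slc46a1 at 0.30 and 0.47, the riboflavin carrier Slc52a2 at 0.41 and the biotin and pantothenate carrier Slc5a6 at -0.05. Slc44a1, which takes up choline for phospholipids, was at 19.5, 15.1, 15.6 and 10.2 FPKM, a ratio of -0.88 that became -1.01 after upper-quartile scaling. The lysosomal Slc46a3 was at 14.1, 13.6, 10.3 and 8.27, a ratio of -0.70, and Slc44a2 at 21.7, 17.5, 21.8 and 23.9.

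Of 11 exchangers of sodium, protons, calcium and potassium, 2 were lower and 0 higher at 20 U/ml, with a median log2 ratio of -0.32. Of all entries, 2.94% were lower and 6.51% higher at that dose. At each of the 3 doses 8 of the 11 were below 0, against 49.7%, 48.4% and 48.9% of all entries. Of the 167 members, 61.1%, 43.1% and 49.1% were below 0, so the members at large also leaned that way at 0.2 U/ml. The doses share the untreated value. Slc9a9 (NHE9), a sodium-proton exchanger of endosomes, was at 19.8, 17.7, 13.2 and 4.57 FPKM, a ratio of -1.90, the lowest of the 167. It spans 94669909 to 95230445 on chromosome 9. Related intracellular exchangers were at smaller ratios: Slc9a8 (NHE8) at 7.98, 7.24, 7.95 and 7.61 and Slc9a7 (NHE7) at 2.13, 2.12, 1.76 and 1.05.

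Slc24a5 (NCKX5), a potassium-dependent sodium-calcium exchanger best known from pigment cells, was at 25.8, 18.2, 22.02 and 9.499 FPKM, with ratios of -0.48, -0.22 and -1.35. Its order over the doses was not monotone. Slc8a1 (NCX1), a sodium-calcium exchanger of the cell surface, was at 1.19, 1.81, 3.23 and 3.05, a ratio of 0.95 at 2 U/ml and 0.89 at 20 U/ml. On the FPKM scale it was 2.56-fold higher at 20 U/ml, more than the 2.28-fold of Slc30a1, which passed the size rule. The pseudocount of 1 kept Slc8a1 short of that rule. Slc8b1 (NCLX), the mitochondrial counterpart of Slc8a1, was at 38.4, 72.1, 40.2 and 42.7, high at 0.2 U/ml alone.

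**Figure D3:**
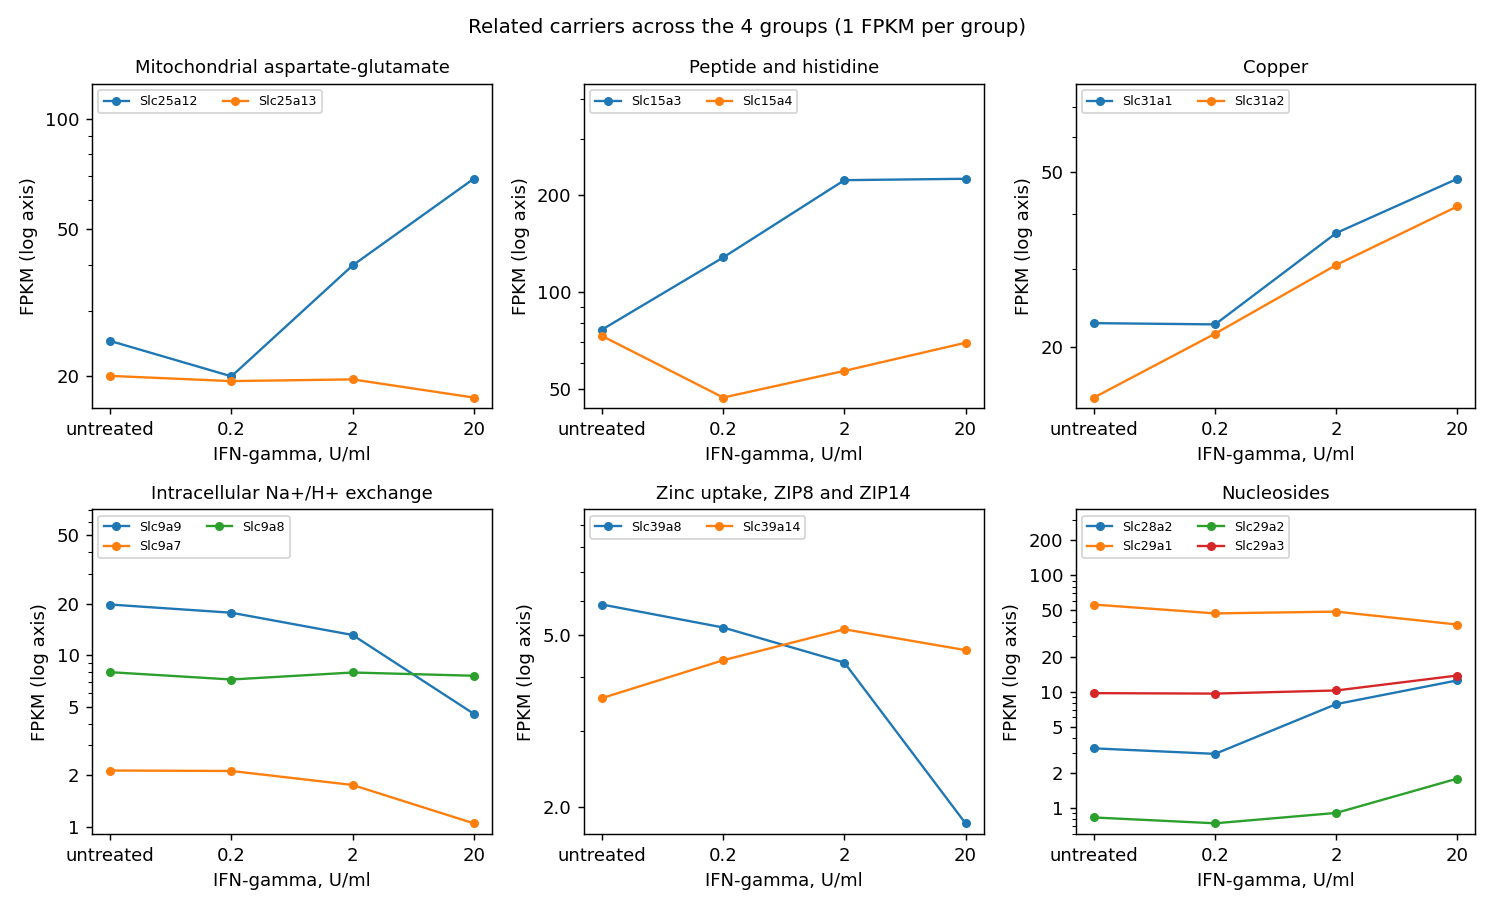
FPKM (log axis, a different range in each panel) of 6 sets of related carriers in untreated cells and at 0.2, 2 and 20 U/ml, 1 value per group. Slc25a12 stands at 68.6 against 17.4 FPKM for Slc25a13 at 20 U/ml, Slc15a3 at 225 against 69.5 for Slc15a4, and the copper carriers Slc31a1 and Slc31a2 are at 48.2 and 41.7.

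Among carriers of chloride, bicarbonate, sulfate and phosphate, 2 of 12 were higher and 1 lower at 20 U/ml. Slc12a9, a member of the cation-chloride cotransporter family, was at 15.2, 22.5, 20.7 and 41.8 FPKM (1.40), and Slc12a7 (KCC4), a potassium-chloride cotransporter, at 5.25, 5.24, 8.29 and 12.9 (1.15). Its relative Slc12a4 (KCC1) was at 17.4, 21.1, 25.1 and 24.6. Slc26a11, an anion carrier of the lysosome, was at 11.8, 6.73, 5.41 and 2.84 FPKM, lower at each step, with ratios of -0.72, -0.99 and -1.73. At 2 U/ml it was the lowest of the 167, and it passed the size rule there (-1.11) with a pseudocount of 0.1. The chloride-bicarbonate exchangers Slc4a2 and Slc26a6 were at -0.36 and -0.58, and the phosphate carriers Slc20a1 and Slc20a2 at 0.10 and 0.16.

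Carriers of osmolytes and creatine were 3 entries, all below 0 at 2 and 20 U/ml. Slc6a8, the creatine carrier on the X chromosome (73673150 to 73682502), was at 51.4, 45.4, 37.04 and 23.4 FPKM, a ratio of -1.10 and lower at each step. The taurine carrier Slc6a6 was at 66.05, 81.9, 59.8 and 50.2 (-0.39). The myo-inositol carrier Slc5a3 shares its entry with Mrps6, a ribosomal protein gene of mitochondria, at 24.8, 27.3, 21.1 and 21.7.

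No sugar carrier among the 9 members passed the size rule. Slc37a2, a sugar-phosphate exchanger of the endoplasmic reticulum, was at 80.4, 92.1, 109 and 131 FPKM, a ratio of 0.70 and higher at each step. Slc2a8 (GLUT8), an intracellular hexose carrier, was at 17.1, 14.1, 13.1 and 10.0 (-0.72). The urate carrier Slc2a9 was at 7.13, 6.39, 8.74 and 7.30, Slc37a4, which brings glucose-6-phosphate into the endoplasmic reticulum, at 7.62, 6.66, 8.18 and 8.16, and Slc50a1 at 38.2, 37.2, 44.9 and 52.4. Slc45a4 was at a ratio of 0.26, Slc37a3 at 0.15 and Slc37a1 at 0.09. The entry of Slc45a3, merged with Elk4 and Gm29103, was at 0.09.

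The carriers that bring nucleotide sugars and other cargo into the Golgi and the endoplasmic reticulum had 0 of 20 members past the size rule in either direction at each dose, with ratios from -0.33 to 0.67 at 20 U/ml. The highest was Slc33a1, which imports acetyl-CoA, at 13.1, 11.9, 13.8 and 21.5 FPKM. Slc35b1, which imports ATP into the endoplasmic reticulum, was at 38.8, 39.96, 52.2 and 55.2 (0.50). Slc35a5 had the lowest ratio (-0.33). Carriers of glycosylation precursors were near 0: Slc35a1, for CMP-sialic acid, at -0.07, Slc35a2, for UDP-galactose, at 0.15, Slc35c1, for GDP-fucose, at 0.30 and Slc35d1 at 0.17. Slc35b2, which carries the sulfate donor PAPS, was at -0.13. Slc35c2 was the leading member of the group by level, at 50.9, 65.4, 50.05 and 45.9 FPKM, followed by the entry of Slc35f6 with Mir5625 at 48.6, 47.9, 48.95 and 62.3 and Slc35a4 at 47.7, 35.5, 55.1 and 48.4.

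The remaining groups had no member past the size rule at 2 or 20 U/ml. Of fatty acid carriers, Slc27a1 (FATP1) was at 68.5, 56.9, 56.5 and 43.2 FPKM (-0.65) and Slc27a4 (FATP4) at 13.6, 21.8, 14.3 and 12.6. The monocarboxylate family members Slc16a7 and Slc16a13 were at -0.14 and 0.29, and Slc16a6, merged with Gm25540, at -0.03. Organic cation carriers were low in general: Slc22a4 (OCTN1), which carries ergothioneine, was at 6.23, 6.45, 4.90 and 4.18 FPKM, and Slc22a5 (OCTN2), which carries carnitine, at 3.06, 2.66, 3.34 and 3.37. Those 2 genes and Slc22a21 lie beside each other on chromosome 11, at ratios of -0.48, 0.11 and -0.22. Slc10a3, merged with Ubl4a, was at 60.6, 80.1, 64.0 and 65.3, Slc10a5, merged with Impa1 and Gm38303, at 21.99, 17.96, 21.0 and 19.3, and Slc10a7 at 12.7, 10.4, 10.2 and 11.1. Slc17a5, which exports sialic acid from lysosomes, was at 25.5, 24.8, 21.8 and 18.4 (-0.45).

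Also under an Slc symbol are 4 entries that are not carriers: the scaffold Slc9a3r1 (NHERF1) at 57.9, 58.2, 46.9 and 47.6 FPKM, Slc4a1ap at 44.3, 58.7, 42.4 and 44.4, Slc7a6os at 15.5, 16.3, 15.4 and 12.8 and the pseudogene Slc2a4rg-ps at 2.12, 2.21, 2.03 and 1.33. None passed the size rule.

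How the 16 members past the size rule at 20 U/ml came to their values differed by dose. Of the 11 higher ones, 11 were above untreated at 2 U/ml, 8 with a log2 ratio of at least 0.5, but 2, Slc15a3 and Slc28a2, passed the size rule there, and 0 passed it at 0.2 U/ml. The share of the 20 U/ml ratio present at 2 U/ml ran from 26.3% for Slc25a22, 30.2% for Slc12a9 and 33.5% for Slc6a9 through 61.1% for Slc23a2, 63.1% for Slc28a2 and 69.0% for Slc31a2 to 99.1% for Slc15a3. Of the 5 lower ones, 5 were below untreated at 2 U/ml and 5 at 0.2 U/ml. There the share ran from 16.1% for Slc24a5, 29.1% for Slc39a8 and 29.2% for Slc9a9 to 57.4% for Slc26a11. These ratios share the untreated value, and the same counts were not made for all entries past the size rule.

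Over all members, 17 were higher at every step from untreated to 20 U/ml (10.2%, against 9.28% of all entries) and 15 lower at every step (8.98%, against 6.54%). Of the 11 higher members 6 were among the former, and of the 5 lower members 4 among the latter. Those members were chosen by their 20 U/ml and untreated values, which also enter the order. The matching share among all higher or lower entries was not counted, so this is no result about carriers. Smaller, ordered differences in the first set included Slc35b1, Slc37a2, Slc25a5, Slc25a37 and Slc25a38, and in the second Slc2a8, Slc27a1, Slc46a3, Slc48a1 and Slc17a5.

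Between doses, few members passed. From 0.2 to 2 U/ml 1 was higher, Slc28a2 (1.17; 0.599% of members, against 1.51% of all entries), and 2 lower, Slc17a9 and Slc4a7 (1.20%, against 6.26%). From 2 to 20 U/ml 2 were higher, Slc6a9 (1.10) and Slc25a22 (1.08), or 1.20% against 2.9%, and 2 lower, Slc9a9 (-1.34) and Slc24a5 (-1.13), or 1.20% against 1.11%. Next in size at that step were Slc12a9 (0.98), Slc25a12 (0.77), Slc30a1 (0.67), Slc39a8 (-0.91), Slc26a11 (-0.74) and Slc26a6 (-0.67). In Slc15a3 this step was 0.01.

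Of the 10 highest members at 0.2 U/ml, 1, Slc15a3, was among the 11 higher at 20 U/ml. The overlap of these doses over all entries was not counted, so this is no result about carriers. Upper-quartile scaling moved the median ratio of all entries at 0.2 U/ml from 0.00 to -0.10. Summed over all entries, the FPKM were 763396, 1013220, 781028 and 805083, highest at 0.2 U/ml. Slc4a7 (NBCn1), which brings sodium and bicarbonate into the cell, was at 9.48, 24.6, 9.87 and 11.4 FPKM, a ratio of 1.29. Slc17a9 (VNUT), which loads ATP into vesicles and lysosomes, was at 6.49, 14.03, 5.33 and 3.99, a ratio of 1.00 that was 0.90 after upper-quartile scaling. Then came the sulfate carrier Slc26a2 (0.93), Slc8b1 (0.89), Slc35e1 (0.85), the entry of the mitochondrial NAD carrier Slc25a51 with Gm25692 (0.78), Slc22a18 (0.74), Slc15a3 (0.74), Slc35e2 (0.72) and Slc27a4 (0.64). In 12 members the ratio was at least 0.5 at 0.2 U/ml and under 0.5 at 2 and 20 U/ml, or 7.19%, against 10.9% of all entries. These 12 came from 8 substrate groups. Lowest at 0.2 U/ml were Slc26a11 (-0.72), Slc15a4 (-0.63), Slc9b2 (-0.58), the entry of Slc39a2 with Mettl17 (-0.58), Slc24a5 (-0.48), Slc35f5 (-0.48), Slc35b4 (-0.45), Slc35a4 (-0.42), Slc22a21 (-0.42) and Slc25a53 (-0.41).

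**Figure D4:**
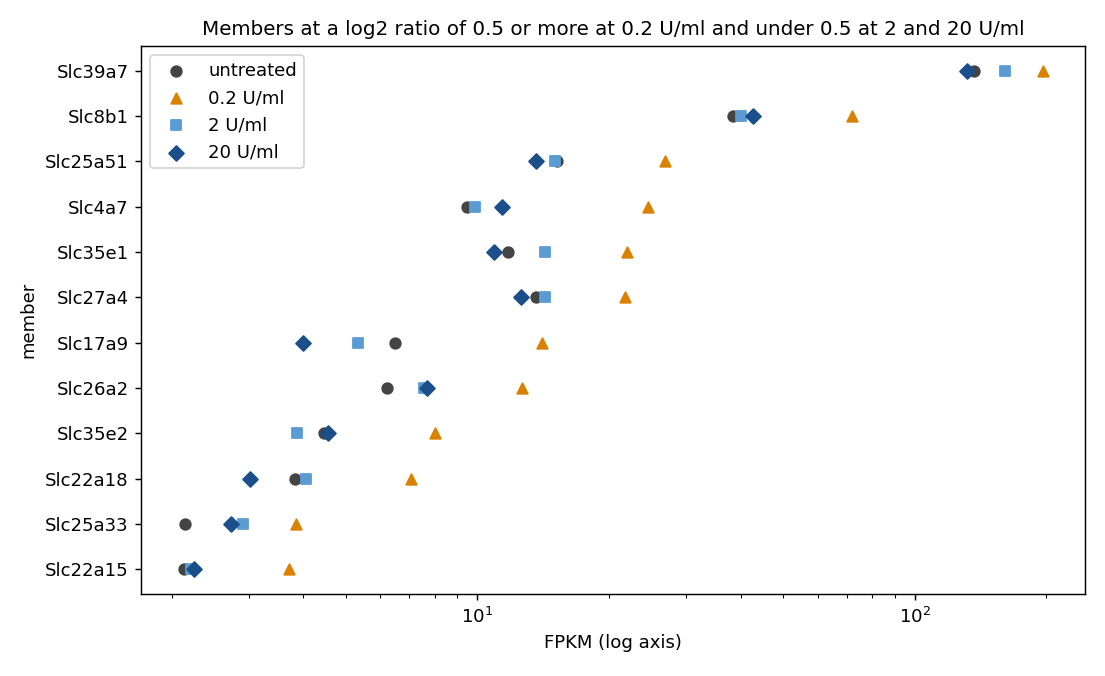
FPKM (log axis) of the 12 members with a log2 ratio of at least 0.5 at 0.2 U/ml and under 0.5 at both other doses (rows), with 1 symbol per group. In each row the value at 0.2 U/ml lies to the right of the other 3, as the choice of members fixes.

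Of the 11 transporters left out by name, 10 passed the filter on level, and at 20 U/ml 4 were higher and 1 lower, where 6.51% and 2.94% of all entries were: Slc2a1 (102 against 33.6 FPKM), Slc2a6 (97.8 against 27.4), Slc7a2 (13.3 against 3.91), Slc16a3 (96.8 against 38.9) and the iron exporter Slc40a1 (13.7 against 46.4). A list of 63 genes of the wider solute carrier superfamily that bear other names had 45 entries used, of which 3 were higher and 3 lower at 20 U/ml, beside the same 6.51% and 2.94% of all entries, with a median log2 ratio of -0.03. The organic anion carrier Slco3a1 was at 4.31, 7.23, 12.7 and 48.2 FPKM, a ratio of 3.21, against 1.67 for Slc28a2. Sfxn5 was at 1.18 and the entry of Cnnm4 with AC084391.1 at 1.21. Lower were Slco2b1 (-1.31), Mfsd6 (-1.17) and the entry of Ank with Mir7117 (-1.08).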

How the data were processed

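Per the submitters' processing notes, the authors ran Cuffdiff 2.1.1, Cufflinks 2.1.1 and TopHat2 2.1.1 on the mm10 build. The deposited expression values are FPKM, 1 per entry and group, per the file headers; the untreated column carries no unit in its name and was read as FPKM from its range. The sources used here do not give how the 3 libraries of a group enter its value, and with 1 value per group no test was made. The second deposited table compares treated with untreated cells, names no dose and was not used. FPKM keep no depth: of 1661 low entries (over 0, below 0.1 FPKM throughout), at most 35 shared 1 ratio of 0.2 U/ml to untreated, so no relative depth was recovered.

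Ratios were computed with Python 3.11.15 and pandas 2.3.3 on 11580 entries (mean of at least 1 FPKM, no 0), with a pseudocount of 1, and were checked on simulated data. Of the 167 members, 12 merge overlapping genes, whose reads cannot be told apart. Substrate groups followed family numbers, with single genes of families of mixed substrate placed by their own substrate; Slc43a3 and Slc4a1ap were moved after the values were seen. Members, lists and the rule for named genes (size of ratio, level within a substrate group, steps between doses, partners) were chosen with earlier results of these data known, and other members were named for their role. All 167 matched a gene position in GENCODE M21 (GRCm38). Start-site sequences came from RefSeq on GRCm38.p6. The values of some members are not reported here one by one, and those members stay in the counts.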

Additional observations from a re-analysis of the deposited data

How the results depend on the processing

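The results were recomputed with pseudocounts of 0.1 and 0.01, a mean of at least 5 FPKM, no filter on low values, entries listed at 0 included, merged entries left out, upper-quartile scaling and quantile normalization. No named member with a ratio past the size rule changed sign. At 20 U/ml the counts of 11 higher and 5 lower stayed within 1.5 times under each, from 9 to 15 and from 4 to 6; under both scalings they were 9 and 6. At 2 U/ml the higher members went from 2 to 5 with pseudocounts of 0.1 and 0.01 (Slc23a2, Slc6a9 and Slc8a1 added), and the lower ones from 0 to 1 (Slc26a11) with those and both scalings. At 0.2 U/ml the higher members went from 2 to 1 under both scalings. From 0.2 to 2 U/ml the higher members went from 1 to 2 (Slc25a12 added) with a pseudocount of 0.01 and both scalings. From 2 to 20 U/ml they went from 2 to 1 at a mean of at least 5 FPKM, which leaves out Slc6a9, and under upper-quartile scaling, where Slc25a22 was at 0.998. No paired analysis was possible because the table holds 1 value per group, and leaving out single replicates could not be done for the same reason.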
